A study of Mus musculus with 6 samples.

Results

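Small leucine-rich proteoglycans are secreted matrix proteins built around a chain of leucine-rich repeats, most of which carry sulfated sugar chains. The 10 genes described here were taken by symbol from the count table: Dcn, Bgn and Aspn of class I, Lum, Prelp, Omd, Fmod and Kera of class II, Ogn of class III and Podn of class V. They are 10 of 52997 gene symbols, and 9 of them were among the 10823 genes that passed the filter on low counts (Kera did not). Messenger RNA was measured in sorted mesenchymal stromal cells of 8-week-old C57BL/6 mice, for which the labels name no treatment or mutation. The cells came from hindlimb skeletal muscle (3 libraries) or from pooled inguinal, axillary, brachial and cervical lymph nodes (3 libraries), with 1000 cells per library. Numbers follow the columns of the table, 2, 3 and 4 for muscle and 1, 2 and 3 for lymph node. The design text calls the 3 libraries of a tissue biological replicates, but a pair of muscle titles shares a number, so the spread behind the p-values may be partly technical. The gate used for sorting is not given in the sources used here.

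In connective tissue these proteins bind along collagen fibrils and set their diameter, spacing and cross-linking. Decorin and biglycan carry chondroitin or dermatan sulfate chains, whereas lumican, fibromodulin and keratocan can carry keratan sulfate. Several also hold growth factors such as TGF-beta in the matrix, and soluble biglycan can act on Toll-like receptors. Fibroblasts are their main source in muscle connective tissue and in the reticular scaffold of lymph nodes.

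Total counts ran from 415460 to 1844874 in muscle and from 1851940 to 2397134 in lymph node libraries, and muscle library 4 was the shallowest of the 6. That library also stood apart in content. Of the marker genes listed for each cell type, the 6 B cell genes summed to 1817 counts per 1000000 (CPM, scaled by the trimmed mean of M values) in muscle library 4, to 27.4 and 36.9 CPM in muscle libraries 2 and 3, and to between 15.4 and 255 CPM in lymph node libraries. CPM refers throughout to the summed counts of genes that passed the filter, not to the total counts. The 6 T cell genes summed to 207 CPM in muscle library 4 and to at most 8.44 CPM in any other library, with none of the 6 at 0 counts in muscle library 4. The 4 haemoglobin genes reached 621 CPM there against at most 10.8 CPM elsewhere. All 7 stromal markers (such as Pdgfra, Pdgfrb and Col1a1) were detected in every library. They summed to between 40079 and 58511 CPM in muscle and between 54104 and 70112 CPM in lymph node. Col1a1 and Col3a1 made up most of these sums (10653 and 40133 CPM in muscle library 4). Pdgfra, Pdgfrb, Ly6a and Pdpn were lower in muscle library 4 than in muscle libraries 2 and 3 (Pdgfra 651 against 1193 and 1331 CPM). Thy1, Col1a1 and Col3a1 lay between those libraries. Results are therefore given with and without muscle library 4. Their dependence on RNA of blood or endothelial cells was not tested. In bulk libraries, fewer cells of a type and less RNA per cell cannot be told apart.

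Most of the genes lie in clusters. On chromosome 13 (GRCm38) Aspn (49544443 to 49567565), Omd (49582462 to 49592822) and Ogn (49608046 to 49624501) follow each other on the plus strand, with the related gene Ecm2 before them. On chromosome 10 Dcn (97479609 to 97518143), Lum (97565128 to 97572703) and Kera (97606879 to 97613692) are next to each other on the plus strand, followed by Epyc. Prelp (133910304 to 133921414, minus strand) and Fmod (134037254 to 134048277, plus strand) are neighbours on chromosome 1. Bgn is on chromosome X (73483602 to 73495933) and Podn on chromosome 4 (108014791 to 108096445). The exons of Prelp overlap the antisense gene Gm15851 in part, but Gm15851 had at most 7 counts in any library. The span of Podn overlaps that of Scp2, with no exon base in common.

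The upstream sequences of Aspn and Ogn are shown because these genes of 1 cluster had fold changes of opposite sign, and that of Bgn because it had the smallest unadjusted p of the family. They are the 250 bases before the RefSeq start (GRCm38.p6), 5′ to 3′. Capitals mark matches, on either strand, to a TATA box (TATAAA), a GC box (GGGCGG), an E-box (CAGCTG) or an AP-1 site (TGANTCA).
Aspn, chr13:49544193-49544442, plus strand: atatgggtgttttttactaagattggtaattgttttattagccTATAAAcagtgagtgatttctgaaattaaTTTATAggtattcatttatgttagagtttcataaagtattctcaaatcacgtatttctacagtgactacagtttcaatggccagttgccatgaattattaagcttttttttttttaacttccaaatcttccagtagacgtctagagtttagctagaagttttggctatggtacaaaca
Ogn, chr13:49607765-49608014, plus strand: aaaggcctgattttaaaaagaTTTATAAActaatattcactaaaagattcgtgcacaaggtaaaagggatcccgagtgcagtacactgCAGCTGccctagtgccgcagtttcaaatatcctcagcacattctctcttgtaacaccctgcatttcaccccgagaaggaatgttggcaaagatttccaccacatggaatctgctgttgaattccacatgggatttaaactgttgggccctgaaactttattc
Bgn, chrX:73483351-73483600, plus strand: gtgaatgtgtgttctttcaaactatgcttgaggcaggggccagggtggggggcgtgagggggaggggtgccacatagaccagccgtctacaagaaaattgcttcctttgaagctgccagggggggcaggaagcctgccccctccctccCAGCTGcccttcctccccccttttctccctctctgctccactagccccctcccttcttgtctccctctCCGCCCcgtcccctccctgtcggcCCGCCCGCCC
The Aspn window held TATAAA on the plus strand at -207 and on the minus strand at -178, counted back from the start. The Ogn window held overlapping matches at -229 and -227 and an E-box at -162. The Bgn window held an E-box at -102 and GC boxes at -34, -10 and -6, of which the last 2 overlap, and no AP-1 match occurred in any of the 3 windows. Among 32851 RefSeq windows of the same length, 12.4% held TATAAA, 32.7% a GC box, 13.0% this E-box and 6.75% the AP-1 sequence. These are matches of letters and say nothing of binding.

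Level per exon length ranked the family in a similar order in the tissues (means ± SD, n = 3 each). Dcn, which encodes decorin, was first by a wide margin, at 2115 ± 348 CPM per kilobase of exon in muscle and 2504 ± 29.4 CPM per kilobase in lymph node, and its range did not overlap that of any other member. Lum came next, at 609.9 ± 133 CPM per kilobase in muscle and 764 ± 107 CPM per kilobase in lymph node. Ogn followed at 408 ± 137 CPM per kilobase in muscle and 619.6 ± 30.2 CPM per kilobase in lymph node, and its range overlapped that of Lum in each tissue. Bgn was at 407 ± 129 CPM per kilobase in muscle and 189 ± 60.1 CPM per kilobase in lymph node. Aspn was at 309.7 ± 100.5 CPM per kilobase in muscle and 167 ± 16.8 CPM per kilobase in lymph node. The range of Bgn overlapped those of Ogn and Aspn in muscle, whereas in lymph node Bgn and Aspn overlapped each other and lay below the whole range of Ogn. Without muscle library 4 Aspn and Bgn changed places in muscle, at 367 and 334 CPM per kilobase. Prelp (136 and 109), Podn (95.04 and 85.7) and Omd (18.4 and 23.2 CPM per kilobase in muscle and lymph node) were lower, and Fmod and Kera were at or under 9.39 CPM per kilobase in each tissue. With the longest transcript in place of all exons Bgn moved to the second place in muscle (931 CPM per kilobase), since its exon union of 6099 bases is much longer than its longest transcript of 2666 bases.

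**Figure D1:**
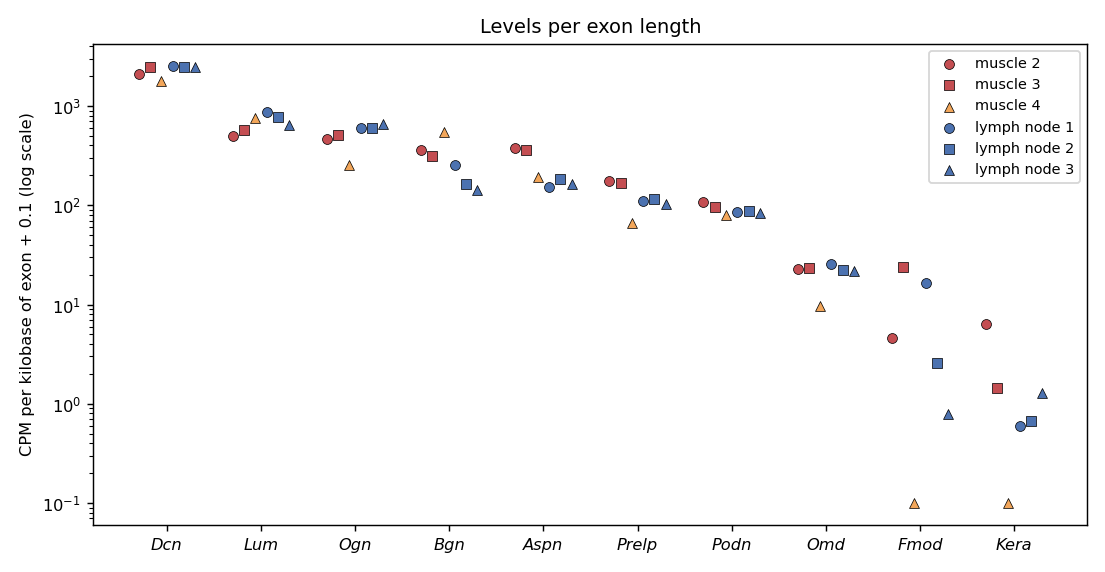
Level of each gene in each library, in CPM per kilobase of exon plus 0.1 on a log axis, with muscle libraries in red and orange (library 4) left of lymph node libraries in blue. Dcn lies above every other gene, and Fmod and Kera scatter at the bottom.

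The family held 1.93%, 2.18% and 1.55% of all counts in muscle libraries 2, 3 and 4, against 2.01%, 1.97% and 1.89% in lymph node libraries 1, 2 and 3. By level per exon length, class I members made up 68.6%, 69.4% and 68.5% of the family in muscle libraries 2, 3 and 4, against 63.4%, 63.8% and 64.9% in lymph node libraries 1, 2 and 3. Within class I, Bgn took 8.73%, 6.84% and 14.9% of the family's level in muscle and 5.53%, 3.72% and 3.33% in lymph node. Aspn took 9.18%, 7.91% and 5.25% in muscle and 3.27%, 4.16% and 3.81% in lymph node. Dcn took 50.7%, 54.7% and 48.3% in muscle and 54.6%, 55.9% and 57.7% in lymph node. With the longest transcript as length the Bgn shares were 16.1%, 12.8% and 26.0% in muscle and 10.5%, 7.16% and 6.42% in lymph node. The class I shares did not overlap between tissues, with or without muscle library 4.

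The comparison of the tissues asked which of these matrix genes muscle and lymph node stromal cells express at different levels. With all 6 libraries none of the 9 tested members was called (edgeR quasi-likelihood F test, Benjamini-Hochberg adjusted p under 0.05), where 4.32% of all tested genes were (1.46% higher and 2.86% lower in muscle). At an unadjusted p under 0.05 there were 3 members (Bgn, Aspn and Ogn), where 15.1% of all tested genes passed. DESeq2 called 2 members, Bgn (adjusted p = 0.0128) and Aspn (adjusted p = 0.0257), and limma-voom called Bgn (adjusted p = 0.0245). Of all genes DESeq2 called 6.35% (2.41% higher in muscle) and limma-voom 5.82% (1.93% higher in muscle). The median log2 fold change (muscle minus lymph node) of the 9 members was 0.16, and that of all tested genes 0.02. Without muscle library 4 edgeR called 4 of the 9, Aspn, Bgn and Prelp higher and Lum lower in muscle, where 12.4% of all tested genes were called (4.79% higher and 7.58% lower), and 5 of the 9 had an unadjusted p under 0.05, where 23.3% of all tested genes did. The same fit had a common biological coefficient of variation of 0.151, against 0.265 with all libraries.

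**Figure D2:**
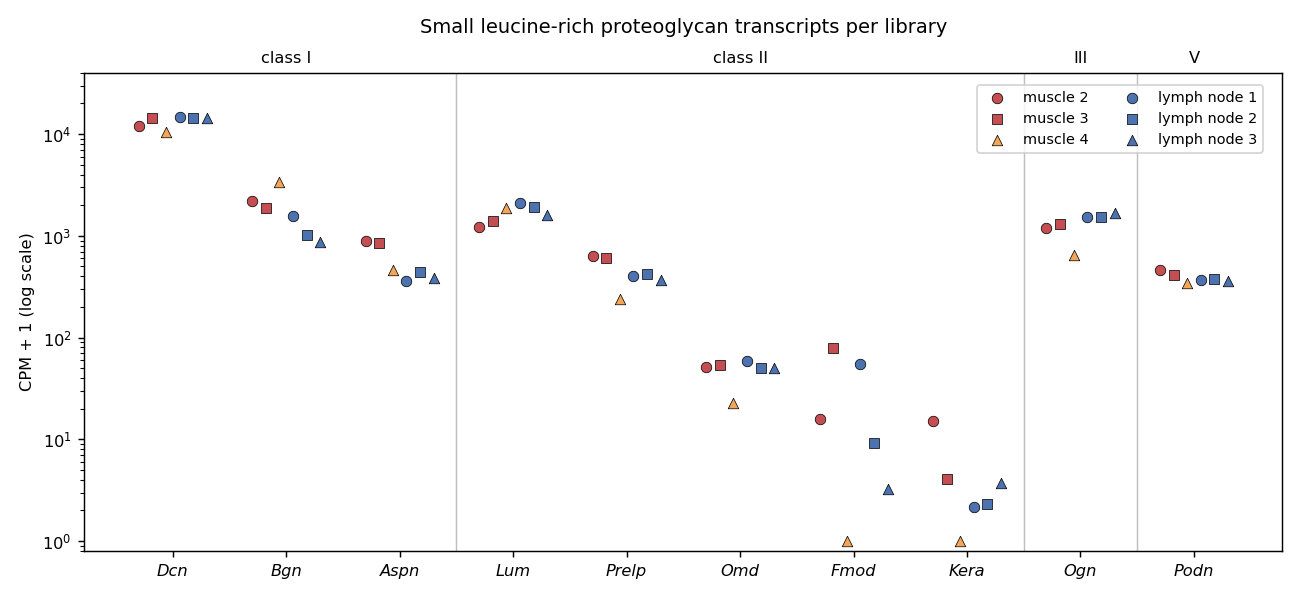
CPM plus 1 of each gene in each library on a log axis, grouped by class, with muscle libraries left of lymph node libraries and muscle library 4 in orange. The muscle points of Bgn all lie above its lymph node points, and library 4 lies below the other muscle libraries for Aspn, Prelp, Omd and Ogn.

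Of class I, Dcn was close in the tissues, at 12132, 14474 and 10430 CPM in muscle libraries 2, 3 and 4 and at 14815, 14515 and 14520 CPM in lymph node libraries 1, 2 and 3. In CPM the muscle values lay below the lymph node values, by a narrow margin in library 3. As a share of total counts, muscle library 3 (18836 of 1256276) lay above every lymph node library. The highest of these was lymph node library 2 (33788 of 2397134). Decorin coats collagen fibrils and also binds TGF-beta and the EGF receptor. The log2 fold change was -0.24 ± 0.20 (SE, edgeR adjusted p = 0.668), with a 95% interval from -0.70 to 0.22. Dcn varied by 1.17% of its mean between lymph node libraries (coefficient of variation) and by 16.4% between muscle libraries.

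Bgn, which encodes biglycan, measured 2181, 1892 and 3371 CPM in muscle libraries 2, 3 and 4 and 1567, 1010 and 876 CPM in lymph node libraries 1, 2 and 3. All muscle values lay above all lymph node values, and the highest was that of muscle library 4, at 1.66 times the mean of muscle libraries 2 and 3. The difference was 1.11 ± 0.29 on the log2 scale, a 2.15-fold higher level in muscle, but was not called with all libraries (adjusted p = 0.0724, interval from 0.45 to 1.76). It was smaller and called without muscle library 4, at 0.82 ± 0.20 (adjusted p = 0.0136). Within lymph node Bgn varied by 31.9%, more than any other abundant member.

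Aspn encodes asporin, a class I member with a run of aspartates and no sugar chain attachment site, which binds collagen and TGF-beta. It measured 886, 844 and 457 CPM in muscle libraries 2, 3 and 4 and 357, 436 and 387 CPM in lymph node libraries 1, 2 and 3. In CPM the tissues did not overlap, although muscle library 4 lay just above lymph node library 2. As a share of total counts, muscle library 4 (170 of 415460) lay below lymph node library 2 (1014 of 2397134), so the tissues overlapped. The log2 fold change was 0.90 ± 0.25 (adjusted p = 0.0972, interval from 0.33 to 1.47) with all libraries. Without muscle library 4 it was 1.13 ± 0.13 (adjusted p = 4.24e-05), a 2.19-fold higher level in muscle.

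Of class II, Lum encodes lumican, which orders collagen fibrils in cornea, skin and tendon. It measured 1230, 1392 and 1857 CPM in muscle libraries 2, 3 and 4 and 2109, 1912 and 1592 CPM in lymph node libraries 1, 2 and 3. Muscle library 4 fell inside the lymph node range, whereas the other muscle libraries lay below it. With all libraries the log2 fold change was -0.33 ± 0.21 (adjusted p = 0.549, interval from -0.81 to 0.15). Lum was called lower in muscle without muscle library 4, by a log2 fold change of -0.52 ± 0.15 (adjusted p = 0.0298), which is 1.44-fold higher in lymph node.

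Prelp encodes a proteoglycan-like protein whose basic end binds heparan sulfate and which links basement membranes to connective tissue. It measured 633, 601 and 239 CPM in muscle libraries 2, 3 and 4 and 399, 417 and 370 CPM in lymph node libraries 1, 2 and 3. Muscle library 4 lay below every lymph node library and the other muscle libraries above them. The log2 fold change with all libraries was 0.33 ± 0.31 (adjusted p = 0.714, interval from -0.38 to 1.04), and without muscle library 4 it was 0.63 ± 0.13 (adjusted p = 0.00408, 1.55-fold higher in muscle). Omd, which encodes the bone matrix protein osteomodulin, measured 50.6, 52.3 and 21.5 CPM in muscle libraries 2, 3 and 4 against 57.7, 49.4 and 49.2 CPM in lymph node libraries 1, 2 and 3. Muscle library 4 was the lowest, and the others of both tissues lay close together. The difference of Omd was -0.22 ± 0.29 with all libraries (adjusted p = 0.797) and -0.02 ± 0.18 without muscle library 4 (adjusted p = 0.966, interval from -0.42 to 0.37).

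Fmod and Kera, known from tendon and cornea, were low and uneven. Fmod encodes fibromodulin, which guides collagen cross-linking in tendon, and had 28, 102 and 0 counts in muscle libraries 2, 3 and 4 against 94, 19 and 5 in lymph node libraries 1, 2 and 3. These are 14.8, 78.4 and 0 CPM in muscle and 53.7, 8.16 and 2.28 CPM in lymph node, and the count of 0 allows up to 8.06 CPM (3 counts) in muscle library 4. The tissues overlapped, and the log2 fold change of 0.74 ± 1.08 (adjusted p = 0.823) had an interval from -1.70 to 3.19. Without muscle library 3 the direction turned, at -1.03, and without lymph node library 1 it was 2.66, neither of them called. Kera, which encodes keratocan, had 27, 4 and 0 counts in muscle libraries 2, 3 and 4 against 2, 3 and 6 in lymph node libraries 1, 2 and 3. Of its 31 muscle counts 27 came from muscle library 2, and it was too low to be tested.

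Markers of tendon and connective sheath, listed as 7 genes, did not move alike. Comp, a matrix protein of tendon and cartilage, had 87.6, 178 and 32.3 CPM in muscle libraries 2, 3 and 4 and 1.14, 2.15 and 4.55 CPM in lymph node libraries 1, 2 and 3 (5.24 ± 0.65, adjusted p = 0.00222). Thbs4, a thrombospondin of tendon matrix, had 107, 152 and 26.9 CPM in muscle libraries 2, 3 and 4 and 1.71, 8.16 and 7.74 CPM in lymph node libraries 1, 2 and 3 (4.04 ± 0.61, adjusted p = 0.00587, or as high as 0.0579 with lymph node library 2 or 3 left out). These genes lay higher in every muscle library, library 4 included, than in every lymph node library. Ptgis, the prostacyclin synthase, went the other way without being called, at 55.9, 43.8 and 16.1 CPM in muscle libraries 2, 3 and 4 and 89.1, 76.5 and 77.9 CPM in lymph node libraries 1, 2 and 3 (-0.94 ± 0.32, adjusted p = 0.181). It made up most of the list's sum in lymph node, which was between 92.4 and 94.9 CPM, whereas the sums in muscle libraries 2, 3 and 4 were 275, 422 and 83.3 CPM. Tnmd, the tendon membrane protein tenomodulin, had 15.8, 37.7 and 2.69 CPM in muscle libraries 2, 3 and 4 and 1.14, 6.01 and 1.37 CPM in lymph node libraries 1, 2 and 3, which overlap. The transcription factors Scx and Mkx had at most 1 and 6 counts in any library, and Cilp2 at most 13. With muscle library 4 left out, Tnmd was called higher (3.09 ± 0.56, adjusted p = 0.00172) and Ptgis lower in muscle (-0.69 ± 0.18, adjusted p = 0.0218). Muscle library 3 was highest in Tnmd, Comp, Thbs4 and Fmod, whereas lymph node library 1, the second highest in Fmod, was the lowest in Tnmd, Comp and Thbs4. The part of tendon cells in the levels of Fmod, Aspn or Kera was not tested.

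Of the remaining classes, Ogn encodes osteoglycin, also called mimecan, which takes part in collagen fibril growth. It measured 1196, 1298 and 645 CPM in muscle libraries 2, 3 and 4 and 1545, 1546 and 1679 CPM in lymph node libraries 1, 2 and 3. The muscle values all lay below the lymph node values. The log2 fold change was -0.60 ± 0.26 with all libraries (adjusted p = 0.308, interval from -1.17 to -0.02) and -0.36 ± 0.13 without muscle library 4 (adjusted p = 0.0858), so the difference was not called in either fit. Podn encodes podocan and measured 460, 413 and 344 CPM in muscle libraries 2, 3 and 4 and 364, 378 and 356 CPM in lymph node libraries 1, 2 and 3. The tissues overlapped through muscle library 4, which was the lowest of the 6. Its difference was 0.16 ± 0.18 (adjusted p = 0.765, interval from -0.24 to 0.55).

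**Figure D3:**
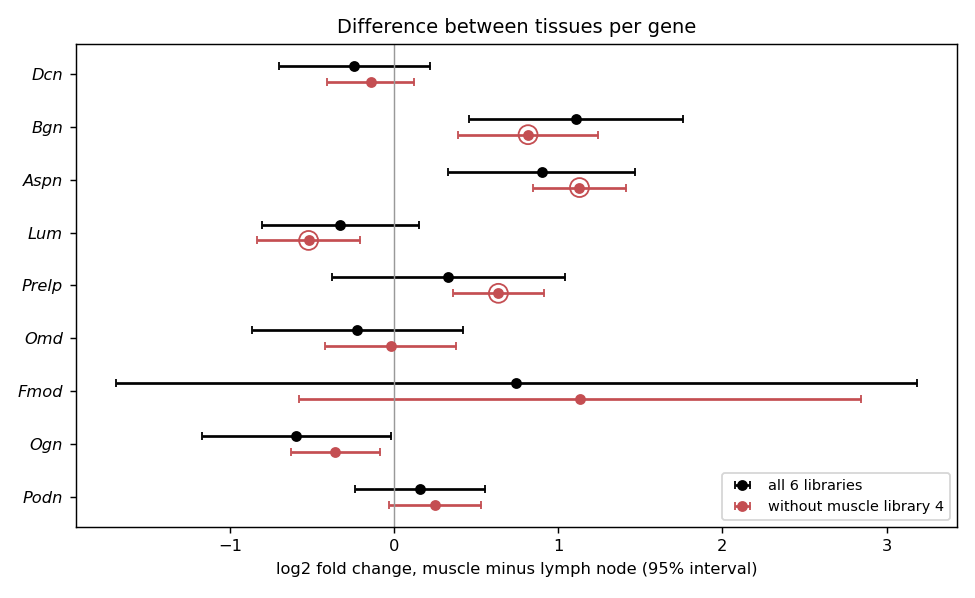
Log2 fold change, muscle minus lymph node, with its 95% interval for the 9 tested genes, in black with all 6 libraries and in red without muscle library 4. Circles mark an adjusted p under 0.05, which Bgn, Aspn, Lum and Prelp reach without muscle library 4.

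Across the 9 tested members, Bgn and Aspn were higher and Dcn and Ogn lower in muscle with no overlap between tissues in CPM, where 9.93% of all tested genes were higher and 13.7% lower without overlap (23.6% in all). Without muscle library 4, 7 of the 9 showed no overlap (Bgn, Aspn, Prelp and Podn higher, Dcn, Lum and Ogn lower), where 39.3% of all tested genes did. By share of total counts in place of CPM, Dcn overlapped with or without muscle library 4, and Aspn overlapped with all libraries. Muscle library 4 did not shift the members alike. Relative to the mean of muscle libraries 2 and 3 it held 1.66 times the Bgn and 1.42 times the Lum, 0.784 times the Dcn and 0.788 times the Podn. It held 0.528 times the Aspn, 0.517 times the Ogn, 0.418 times the Omd and 0.388 times the Prelp. The stromal marker Pdgfra measured 651 CPM in that library against 1193 and 1331 CPM in muscle libraries 2 and 3. In lymph node libraries 1, 2 and 3 Pdgfra measured 1392, 1338 and 1494 CPM, above all muscle values (-0.41 ± 0.26, edgeR adjusted p = 0.536). The margin over muscle library 3 was narrow.

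Ratios of counts inside a library do not depend on library scaling, and 12 were computed after the values had been seen, so they are given as descriptions. They are Aspn to Ogn, Bgn and Lum to Dcn, and each of the 9 tested members to the stromal marker Pdgfra. In CPM Pdgfra was itself lower in every muscle library than in every lymph node library, and lowest in muscle library 4. The margin was narrow in muscle library 3 (1331 CPM against 1338 CPM in lymph node library 2). As a share of total counts, that library (1732 of 1256276) lay above lymph node library 2 (3115 of 2397134), so the tissues overlapped. Ratios to Pdgfra are raised in muscle relative to CPM by its lower CPM there, most in muscle library 4 and least in muscle library 3. The ratio of Aspn to Ogn, which lie 40480 bases apart on chromosome 13 with Omd between them, was 0.740, 0.651 and 0.708 in muscle libraries 2, 3 and 4 and 0.231, 0.282 and 0.230 in lymph node libraries 1, 2 and 3. In this ratio muscle library 4 lay between the other muscle libraries. Set against Pdgfra, Aspn was at 0.743, 0.635 and 0.702 in muscle libraries 2, 3 and 4 and at 0.257, 0.326 and 0.259 in lymph node libraries 1, 2 and 3. Ogn against Pdgfra was at 1.00, 0.975 and 0.992 in muscle and at 1.11, 1.16 and 1.12 in lymph node, and Omd against Pdgfra overlapped between tissues. Neighbours in this cluster thus had ratios to Pdgfra that were higher, overlapping and lower in muscle. The share of all tested genes without overlap in their ratio to Pdgfra was not computed. Prelp against Pdgfra was at 0.531, 0.452 and 0.368 in muscle libraries 2, 3 and 4 and at 0.287, 0.312 and 0.247 in lymph node libraries 1, 2 and 3, without overlap. Podn against Pdgfra was at 0.386, 0.311 and 0.529 in muscle libraries 2, 3 and 4 and at 0.261, 0.282 and 0.238 in lymph node libraries 1, 2 and 3. It did not overlap on this scale, although its CPM did, and this scale carries the low Pdgfra of muscle library 4. Dcn against Pdgfra was at 10.2, 10.9 and 16.0 in muscle libraries 2, 3 and 4 and at 10.6, 10.8 and 9.72 in lymph node libraries 1, 2 and 3. These values overlapped with the higher mean in muscle (12.4 against 10.4), whereas in CPM all muscle values of Dcn lay below those of lymph node. Bgn against Pdgfra was at 1.83, 1.42 and 5.18 in muscle libraries 2, 3 and 4 and at 1.13, 0.754 and 0.587 in lymph node libraries 1, 2 and 3, without overlap. Lum against Pdgfra was at 1.03, 1.05 and 2.86 in muscle libraries 2, 3 and 4 and at 1.52, 1.43 and 1.07 in lymph node libraries 1, 2 and 3. It overlapped through muscle library 4 alone, and the other muscle libraries lay below lymph node, narrowly so for lymph node library 3. Fmod against Pdgfra overlapped between tissues, with or without muscle library 4.

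The class I pair differed in the same measure. Bgn per Dcn count was 0.180, 0.131 and 0.323 in muscle libraries 2, 3 and 4 and 0.106, 0.0696 and 0.0604 in lymph node libraries 1, 2 and 3. The muscle values lay above the lymph node values, with muscle library 4 the highest. Lum per Dcn count, a ratio of chromosome 10 neighbours, was 0.101, 0.0961 and 0.178 in muscle libraries 2, 3 and 4 and 0.142, 0.132 and 0.110 in lymph node libraries 1, 2 and 3. Here muscle library 4 was the highest of the 6 and the other muscle libraries the lowest.

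**Figure D4:**
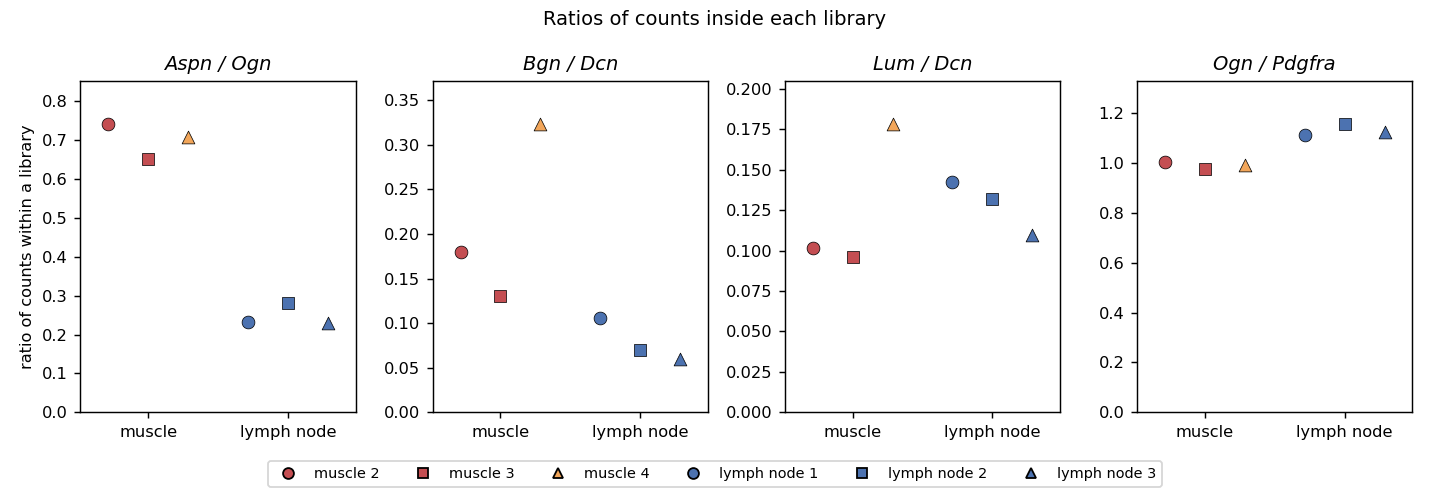
Ratio of counts of a gene pair inside each library, with muscle libraries (library 4 in orange) left of lymph node libraries. Aspn to Ogn lies between 0.651 and 0.740 in muscle and between 0.230 and 0.282 in lymph node, whereas muscle library 4 departs from the other muscle libraries in Bgn to Dcn and Lum to Dcn.

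Of 8 further family members, 3 were tested and none was called by edgeR with all libraries, with 1 at an unadjusted p under 0.05, 0 called by DESeq2 and 1 by limma-voom. The shares over all tested genes were 4.32%, 15.1%, 6.35% and 5.82% in the same order. Tsku, a secreted inhibitor of growth factor signalling, measured 71.2, 46.1 and 40.3 CPM in muscle libraries 2, 3 and 4 and 29.1, 28.8 and 25.5 CPM in lymph node libraries 1, 2 and 3. The tissues did not overlap, where 9.93% of all tested genes were higher in muscle without overlap. The log2 fold change of 0.97 ± 0.27 (adjusted p = 0.0903) was 1.09 ± 0.22 without muscle library 4 (adjusted p = 0.00451). In that fit 4.79% of all tested genes were called higher in muscle. Ecm2, the cluster neighbour of Aspn, measured 299 ± 40.0 CPM in muscle and, in lymph node, 356 ± 13.5 CPM (SD, n = 3 each, -0.25 ± 0.17, adjusted p = 0.592). Epyc, a cartilage member beside Kera, had 2, 1 and 29 counts in muscle libraries 2, 3 and 4 and 5, 5 and 2 in lymph node libraries 1, 2 and 3. It was above 5 counts in muscle library 4 alone, and it did not pass the filter. Chad, Nyx, Optc and Podnl1 had at most 8 counts in any library, and Chadl had between 0 and 18 counts without being called.

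Enzymes that build the sugar chains mostly did not pass the test. Of all tested genes 1.46% were called higher and 2.86% lower in muscle, or 4.79% and 7.58% without muscle library 4. Of 19 tested genes of the linker and of chondroitin or dermatan sulfate, 1 rose and 1 fell in muscle relative to lymph node (median log2 fold change -0.14). The sulfotransferase Chst7 measured 36.6 ± 1.17 CPM in muscle and, in lymph node, 12.7 ± 2.45 CPM (1.53 ± 0.30, adjusted p = 0.0197). Chst15, which adds a further sulfate to chondroitin, measured 13.2 ± 6.97 CPM in muscle and, in lymph node, 45.1 ± 8.86 CPM (-1.88 ± 0.41, adjusted p = 0.0341). The epimerases of dermatan sulfate, Dse and Dsel, had differences of -0.29 ± 0.21 and -0.31 ± 0.26 (adjusted p = 0.609 and 0.665). Of 4 tested keratan sulfate genes 1 fell (median -0.24), the sulfotransferase Chst1, at 2.85 ± 2.70 CPM in muscle and, in lymph node, 17.9 ± 0.84 CPM (-2.31 ± 0.53, adjusted p = 0.0437). Under total-count scaling 0 of the 4 were called, so the call of Chst1 was lost there. The most abundant of that list, the galactosyltransferase B4galt1, measured 443 ± 34.8 CPM in muscle and, in lymph node, 608 ± 95.4 CPM (adjusted p = 0.279), and B4galt4 differed by -0.03 ± 0.37 (adjusted p = 0.985). Chst7, Chst15 and Chst1 kept their calls when muscle library 4 was left out and lost them when any of the remaining 5 was (adjusted p up to 0.157, 0.181 and 0.226). Of 9 tested genes of sulfate supply and tyrosine sulfation none was called by edgeR or DESeq2, 1 by limma-voom and 1 had an unadjusted p under 0.05 (median -0.07). Over all tested genes limma-voom called 5.82%, and 15.1% had an unadjusted edgeR p under 0.05. The most abundant genes of the sulfate list, the sulfate donor synthase Papss1 and the tyrosine sulfotransferase Tpst1, differed by 0.20 ± 0.21 and -0.90 ± 0.51. The 3 lists without muscle library 4 had 1 higher and 2 lower, 0 higher and 2 lower, and 0 higher and 1 lower calls in the same order, the added ones being Ust, B4galt1 and the sulfate transporter Slc26a2 (-0.99 ± 0.21, adjusted p = 0.00519).

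Of 10 tested proteases of these proteins or of procollagen, enhancers included, 2 fell in muscle relative to lymph node and 0 rose (median -0.69). Of all tested genes 2.86% were called lower and 1.46% higher in muscle. Mmp3, a stromelysin able to cut decorin, fell by 5.29 ± 0.36 on the log2 scale (adjusted p = 2.00e-04). Adamts1 measured 195 ± 96.9 CPM in muscle and, in lymph node, 939 ± 87.9 CPM (-2.22 ± 0.35, adjusted p = 0.00755), a call lost without any 1 lymph node library (adjusted p up to 0.0556). The most abundant, Mmp2, measured 1648 ± 657 CPM in muscle and, in lymph node, 2659 ± 65.6 CPM (adjusted p = 0.310), and it was called without muscle library 4 (-0.40 ± 0.12, adjusted p = 0.0452). Pcolce, which speeds procollagen cleavage, differed by -0.39 ± 0.23 (adjusted p = 0.496). Of 11 tested collagens that the family binds, 0 were called by edgeR and likewise 0 by DESeq2 and limma-voom, while 3 showed an unadjusted edgeR p under 0.05 (median -0.13). Such a p was found for 15.1% of all tested genes. Col3a1 and Col1a1, the most abundant, had differences of -0.23 ± 0.25 and -0.38 ± 0.24. Col5a3 was called higher in muscle without muscle library 4 (0.55 ± 0.13, adjusted p = 0.0136).

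Of 10 tested signalling partners 1 rose and 1 fell (median -0.02), where 1.46% of all tested genes were called higher and 2.86% lower in muscle. The EGF receptor Egfr, which decorin binds, measured 505 ± 74.1 CPM in muscle and, in lymph node, 1145 ± 92.8 CPM (-1.18 ± 0.18, adjusted p = 0.00731, or as high as 0.0764 with lymph node library 2 or 3 left out). Bmp4, a growth factor that biglycan can bind, measured 57.3 ± 12.6 CPM in muscle and, in lymph node, 16.4 ± 4.61 CPM (1.82 ± 0.30, adjusted p = 0.00856, or as high as 0.0842 with muscle library 3 or lymph node library 1 or 3 left out). Lrp1, an endocytic receptor that takes up decorin, differed by 0.04 ± 0.17 (adjusted p = 0.953). Beside the same shares of all tested genes, 3 of 7 tested proteoglycans outside the family rose in muscle relative to lymph node and 0 fell (median 1.32). They were Cspg4 (3.01 ± 0.27, adjusted p = 4.91e-04), the lubricant Prg4 (3.62 ± 0.52, adjusted p = 0.00502, or as high as 0.0649 with lymph node library 2 or 3 left out) and the testican Spock2 (1.32 ± 0.29, adjusted p = 0.0331, or as high as 0.218 with muscle library 3 or a lymph node library left out). The most abundant of these, the basement membrane perlecan Hspg2, differed by 0.23 ± 0.21 (adjusted p = 0.687), and versican Vcan by 0.54 ± 0.29 (adjusted p = 0.448). Without muscle library 4 Vcan was called higher (0.79 ± 0.17, adjusted p = 0.00543) and Agrn lower (-1.01 ± 0.28, adjusted p = 0.0267), and the median of the list was 0.79 (0.50 with limma-voom on all libraries). The signalling list kept 1 higher and 1 lower call in that fit, where 4.79% of all tested genes were called higher and 7.58% lower.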

How the data were processed

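Raw gene counts per gene symbol were deposited by the authors for 6 libraries. The submitters' processing notes name STAR 2.5.4, featureCounts and the build mm10. For annotation release, strand setting and multiply aligned reads there is no statement in the sources used. Per the labels' protocols, polyadenylated RNA of 1000 double-sorted cells was amplified and read as pairs of 25 bases. No molecular identifiers are described, so counting limits cover counting error only. The lymph node columns match sample titles, whereas the muscle columns (2, 3 and 4) are numbered unlike the titles and were used as 3 replicates of the tissue.

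Counts were tested with edgeR 4.0.16 (R 4.3.3) over the whole table: filterByExpr, TMM scaling, glmQLFit and glmQLFTest on tissue, two-sided, with Benjamini-Hochberg adjustment over 10823 genes and a threshold of 0.05. Standard errors were taken from the F statistic (the log2 fold change over the root of F), with 95% intervals. Alternatives were other scalings and filters, DESeq2 1.42.0, limma-voom (limma 3.58.1), leaving out each library and a block by column number. On simulated data for this comparison (10483 genes) edgeR recovered 96% of 4-fold and 19% of 2-fold changes with 5 false calls. Changes were planted only in genes with a mean of at least 20 CPM. All libraries shared the dispersion of each gene, so a library that stands apart, like muscle library 4, was not simulated. Coordinates and exon lengths come from GENCODE M21 (GRCm38), and upstream sequences from a table of RefSeq windows in which 8 of the 10 genes were matched. Libraries of the same tissue all differed beyond counting noise (chi-square over its degrees of freedom between 2.55 and 27.0).

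The members and lists were chosen with earlier results of these data known. Named were all members, the called genes of each list (at most 4) and its most abundant genes. Genes with a pattern like that of a called member were to be named, but no member was called with all libraries.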

Additional observations from a re-analysis of the deposited data

How the results depend on the processing

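The count of called members was 0 under the other scalings, without a filter and with the stricter filter (10 CPM in at least 3 libraries), 2 with DESeq2 and 1 with limma-voom. Leaving out a library gave between 0 and 4 called members, the 4 without muscle library 4 and 0 without any other. Calls in the 7 surrounding lists numbered 10 (5 higher, 5 lower) of 70 tested genes. They numbered between 2 and 17 when a library was left out. With no filter they numbered 16 of 87 fitted genes. Over all genes 468 of 10823 were called (158 higher, 310 lower), and 945 with no filter (419 higher, 526 lower, 39490 genes fitted). Between 142 and 1391 were called when a library was left out, more without muscle library 4 and fewer without each of the other 5. Total-count scaling left 9 listed calls, without that of Chst1. The unfiltered fit shifted the median log2 fold change of all genes by -0.16.

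Column numbers 2 and 3 occur in both tissues. The deviations of same-numbered columns from their tissue means had r = -0.03 and 0.02 across genes. The muscle mean included muscle library 4, which stood apart, so these values cannot tell whether same-numbered columns shared mice. A fit of those 4 libraries with the number as replicate block called 1605 of 11291 genes, 6 of 9 members and 24 of 71 listed genes. The members were Fmod and Ogn beside the 4 called without muscle library 4. The same 4 libraries with no block, added after the data were seen, gave 1666, 6 and 25.

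Directions that turned were not called: Podn at -0.012 with no filter, Omd at 0.056 with the block and 0.055 without it, and Chadl at -0.011 with limma-voom. Leaving out a library, Fmod ranged from -1.03 to 2.66 and Chadl from -0.16 to 0.50. The cause of these changes was not tested. Kera was fitted without a filter only, where it was not called. The order of members by level per kilobase kept all 10 places in lymph node and 7 of 10 in muscle with either other length. Fmod, Kera and Omd had 0, 0 and 8 counts in muscle library 4, the shallowest. Fmod also varied between the deeper lymph node libraries 1, 2 and 3, at 94, 19 and 5 counts. The part of depth in these values was not tested.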
